A study of Mus musculus with 16 samples.

Results

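Autophagosomes are built by a set of proteins that act in order. Here 34 genes of that machinery are described in T cells that were sorted by an autophagy reporter. The 34 genes were taken by symbol from a table of 13275 listed genes, and all 34 were listed and passed the filter on low counts. Their open chromatin was taken as the ATAC-seq peaks that overlap a gene body extended by 2.0 kb at each end, which gave 187 of 73648 open regions in cultured cells and 163 of 72327 in cells recovered from tumours. The symbols form a functional group, and the rule that picks them uses no threshold on a measured value, although the group was chosen with earlier results of these data known.

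The cells were purified T cells of Pmel-LC3-GFP-RFP mice, in which a melanoma antigen receptor is combined with a tandem fluorescent LC3 reporter. They were activated over 3 days with αCD3 and αCD28 antibodies (2 µg/ml of each) in the presence of IL2 (100 IU/ml). Carbon monoxide (CO) was given for 24 h before the cells were sorted into an LC3-GFP positive and an LC3-GFP negative population. Every group compared here, negative cells included, therefore carries the reporter and had the activation and the CO. RNA comes from 2 libraries of each population, and open chromatin from another 2 of each in cultured cells, called in vitro below. For the tumour libraries (in vivo), sorted positive or negative cells were given to C57BL/6 mice bearing B16-F10 melanomas of 12 days, and the Vβ13+CD8+ cells of each excised tumour were sorted 15 days later, with 4 mice in a group. The names positive and negative thus give the state of the tumour libraries' cells at transfer, and the Vβ13 and CD8 gate alone defined the cells that were recovered. Separate animals or cultures are not named for the replicates of the RNA and in vitro groups, so p-values measure only how these samples spread, and that spread may be technical. In bulk samples fewer cells of a kind and less RNA per cell cannot be told apart.

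Total counts per RNA library ran from 14567540 to 17557628. All 9 CD8 T cell markers were measured, with Cd8a at 524 and 534 CPM (counts scaled by library size with edgeR) in positive and 583 and 618 CPM in negative libraries, and 6 of the 9 were called lower in positive cells, beside 13.6% of all tested genes. Of 5 tested B cell markers 4 were higher in positive cells, beside 11.3% of all tested genes, and Pax5 was not listed. The summed level of these markers was 12.0 to 12.8 CPM in positive and 4.21 to 5.45 CPM in negative libraries. Of 3 tested myeloid markers 1 was higher and 1 lower, with a sum of 4.33 to 4.35 against 7.06 to 7.18 CPM, and Lyz2, Csf1r and Adgre1 were not listed. Of the CD4 T cell markers, Cd4 was higher (4.40 and 3.39 against 0.971 and 0.699 CPM, log2 fold change 2.21, adjusted p = 0.000144) and Zbtb7b lower (log2 fold change -0.48). The NK cell marker Klrb1c was lower (1.56 and 2.95 against 5.76 and 7.69 CPM, log2 fold change -1.59, adjusted p = 0.00036). The other NK cell markers, Ncr1 and Klra8, were not listed. None of 3 melanoma and stroma markers was called, and Mlana and Dct were not listed. Rn45s, a ribosomal RNA precursor, took 1.43% and 1.51% of counts in positive and 3.20% and 3.58% in negative libraries. The part of these differences in the results below was not tested.

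Autophagy starts when the ULK kinase complex, held inactive by mTORC1 in fed cells, is released and activates a class III phosphatidylinositol 3-kinase complex built around VPS34 and Beclin 1. The lipid it makes, PI3P, recruits WIPI proteins, while ATG9 vesicles, the lipid channel ATG2 and the scramblases VMP1 and TMEM41B supply membrane. A pair of ubiquitin-like conjugation reactions then attaches LC3 and its relatives to the growing membrane, and in T cells the pathway is known for its part in survival and memory.

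The starts of the genes on which the results turn are shown first. RefSeq promoter windows (GRCm38.p6, the assembly that mm10 names, from 250 bases before to 50 bases after a start) were found for 27 of the 34 genes, in 31 windows. Searched on both strands were the E-box of TFEB and TFE3 (CACGTG), the antioxidant response element of NRF2 (TGACNNNGC), the C/EBP-ATF element of ATF4 and CHOP (TGATGNAA) and a FOXO element (TGTTTAC). Windows of Atg9a, Wipi1 and Ambra1 are given because these were the genes whose RNA differed, and none of them holds any of the 4 motifs. Those of Atg3 and Atg5 hold the E-box, and that of an alternative Vmp1 start lies inside a region open in positive cells alone in vitro. Capitals mark an E-box or an antioxidant response element, and each line runs 5′ to 3′ on the gene's strand.
Atg9a, chr1:75191961-75192260, minus strand: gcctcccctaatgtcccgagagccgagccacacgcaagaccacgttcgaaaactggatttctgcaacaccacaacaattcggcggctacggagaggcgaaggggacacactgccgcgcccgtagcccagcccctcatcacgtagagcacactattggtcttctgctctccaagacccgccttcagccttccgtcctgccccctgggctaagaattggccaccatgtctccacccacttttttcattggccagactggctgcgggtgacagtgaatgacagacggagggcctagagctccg
Wipi1, chr11:109611340-109611639, minus strand: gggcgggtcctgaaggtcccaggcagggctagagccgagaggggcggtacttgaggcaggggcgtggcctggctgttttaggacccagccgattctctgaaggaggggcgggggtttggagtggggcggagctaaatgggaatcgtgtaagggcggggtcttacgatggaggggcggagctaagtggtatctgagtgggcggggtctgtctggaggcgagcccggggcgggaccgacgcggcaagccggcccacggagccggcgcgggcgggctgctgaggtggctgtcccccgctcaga
Ambra1, chr2:91729888-91730187, plus strand: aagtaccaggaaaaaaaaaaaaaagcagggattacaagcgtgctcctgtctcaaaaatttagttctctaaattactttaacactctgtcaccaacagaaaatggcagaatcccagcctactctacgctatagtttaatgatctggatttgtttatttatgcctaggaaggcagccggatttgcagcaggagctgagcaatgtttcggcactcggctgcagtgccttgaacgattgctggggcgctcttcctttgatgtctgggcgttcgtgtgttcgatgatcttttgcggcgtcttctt
Atg3, chr16:45158579-45158878, plus strand: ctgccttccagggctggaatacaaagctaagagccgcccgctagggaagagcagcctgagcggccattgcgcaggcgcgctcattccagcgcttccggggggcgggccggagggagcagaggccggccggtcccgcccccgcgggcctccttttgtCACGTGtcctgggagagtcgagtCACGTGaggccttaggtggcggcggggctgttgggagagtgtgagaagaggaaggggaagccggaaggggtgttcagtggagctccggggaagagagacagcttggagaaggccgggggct
Atg5, chr10:44268089-44268388, plus strand: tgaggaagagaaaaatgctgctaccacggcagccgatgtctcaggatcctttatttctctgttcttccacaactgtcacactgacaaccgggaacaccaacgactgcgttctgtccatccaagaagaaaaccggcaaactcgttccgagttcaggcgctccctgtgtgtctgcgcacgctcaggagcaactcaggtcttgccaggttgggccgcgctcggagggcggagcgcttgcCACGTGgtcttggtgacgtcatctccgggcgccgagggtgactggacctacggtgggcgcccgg
Vmp1 alternative start, chr11:86671132-86671431, minus strand: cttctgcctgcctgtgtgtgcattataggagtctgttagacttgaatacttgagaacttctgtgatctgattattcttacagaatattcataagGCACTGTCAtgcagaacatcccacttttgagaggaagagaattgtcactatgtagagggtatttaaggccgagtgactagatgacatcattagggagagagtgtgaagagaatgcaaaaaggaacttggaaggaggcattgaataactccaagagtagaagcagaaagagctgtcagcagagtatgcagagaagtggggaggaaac

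An E-box stood in 5 of the 31 windows (16.1%), those of Atg3, Atg5, Atg7, Atg14 and Nrbf2, against 7.20% of all 32619 promoter windows and 10.1% of the windows of genes tested for RNA. In Atg3 the E-boxes begin 94 and 71 bases upstream of the start, and in Atg5 the E-box begins 14 bases upstream. The antioxidant response element was found in 6 windows of 4 genes (19.4%, against 12.4% of all windows and 14.6% of those of tested genes), namely Atg13, Nrbf2, Ulk2 and the 3 starts of Vmp1. No window held the C/EBP-ATF letters, which 3.87% of all windows and 2.28% of those of tested genes hold, or the FOXO letters, which 3.67% and 2.59% hold. These matches describe letters in the windows and nothing more.

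In RNA the machinery differed little between the sorted populations. No member was called higher in LC3-GFP positive cells and 3 were called lower (Atg9a, Wipi1 and Ambra1), with edgeR's quasi-likelihood test, Benjamini-Hochberg adjustment over all 12022 tested genes and a threshold of 0.05. Over all tested genes 25.0% were called, 11.3% higher and 13.6% lower, so that the share of members called, 3 of 34, lay below the background. The members' median log2 fold change (positive over negative) was -0.02, beside 0.00 over all genes, and the median size of the change was 0.12, beside 0.15. Of the 34, 16 had a log2 fold change above 0 and 18 below, and 6 had an unadjusted p under 0.05, beside 4362 of all 12022 genes. Both positive libraries lay above both negative ones for 11 members and below them for another 11, and the groups overlapped for 12. Among all tested genes the groups did not overlap for 61.5%. The counts and medians of the 34 include the row named Atg4a, which lies at a pseudogene, as described below.

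The scaling of the libraries bears on these counts. Without TMM, on library size alone, the median of all genes moved to 0.06 and that of the members to 0.04. The share of called genes that were higher moved from 45.4% to 65.1%. Under that scaling Atg101, Atg5 and Becn1 were called higher (adjusted p = 0.0392, 0.0467 and 0.0462) and Atg9a alone was called lower. DESeq2 called Atg9a alone.

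**Figure D1:**
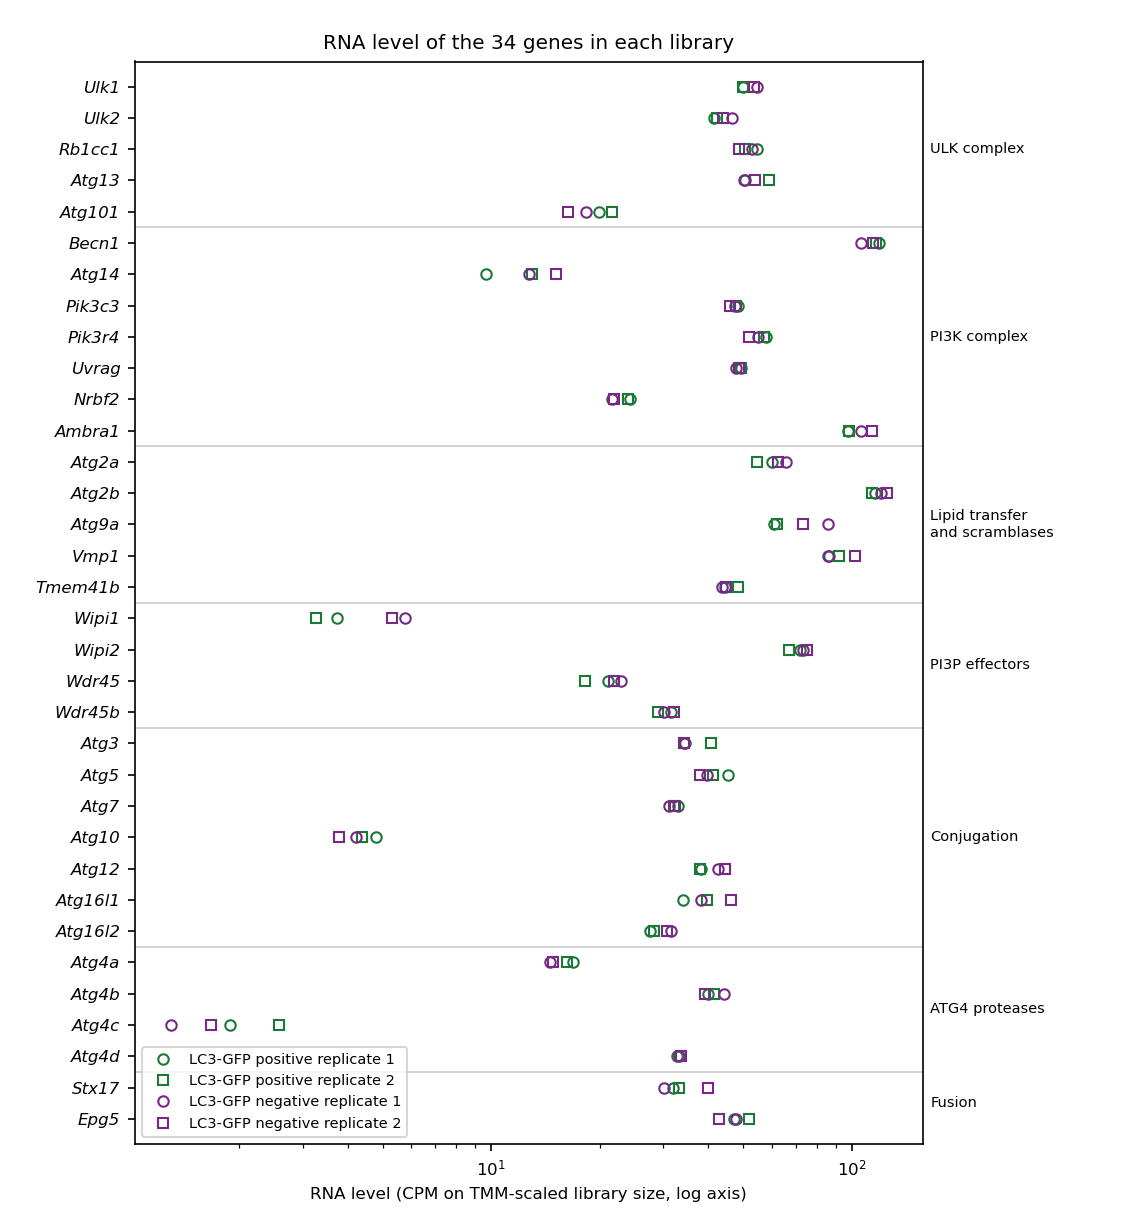
RNA level of each of the 34 genes in the 4 libraries, in CPM on TMM-scaled library sizes (log axis), grouped by role; circles are replicate 1 and squares replicate 2 of LC3-GFP positive (green) and negative (purple) cells. For Atg9a both positive libraries (60.6 and 61.8 CPM) lie below both negative ones (85.9 and 73.0 CPM), and for Uvrag all 4 symbols fall between 47.8 and 49.3 CPM.

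No transcript lengths were given, so levels below compare libraries for 1 gene and not genes with each other. Levels are in CPM, and values are listed as replicates 1 and 2 of a group.

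The ULK complex joins the kinases ULK1 and ULK2 to the scaffold FIP200 (Rb1cc1) and the regulators ATG13 and ATG101. None of its 5 genes was called. Atg101, which encodes the small subunit that stabilises ATG13, stood at 19.9 and 21.7 CPM in positive and 18.3 and 16.3 CPM in negative libraries, a log2 fold change of 0.26 with a standard error (SE) of 0.11 and an adjusted p of 0.0979. Both positive libraries were above both negative ones, and without negative replicate 1 the adjusted p was 0.0428. Atg13 stood at 50.6 and 58.8 CPM against 50.1 and 53.9 CPM, and its groups overlapped (log2 fold change 0.07, SE 0.08, adjusted p = 0.555). The kinase genes Ulk1 and Ulk2 had positive means of 49.9 and 41.9 CPM and negative means of 54.1 and 45.2 CPM. Their negative libraries lay above the positive ones, with log2 fold changes of -0.12 and -0.11. Rb1cc1 had a log2 fold change of 0.05.

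The class III PI3-kinase complex holds the lipid kinase VPS34 (Pik3c3), its anchor VPS15 (Pik3r4), Beclin 1 (Becn1) and either ATG14, which directs it to new autophagosomes, or UVRAG, which directs it to endosomes. Of its 7 genes 1 was called. Ambra1, which encodes a ligase adaptor that binds Beclin 1 and brings it to ULK1 (mm10 chr2:91730138-91918849), stood at 97.6 and 97.8 CPM in positive and 106 and 114 CPM in negative libraries. The groups did not overlap, and the log2 fold change was -0.17 (SE 0.06, adjusted p = 0.0357). That call held in 5 of 10 alternative analyses. It was lost with library size alone (adjusted p = 0.177), with DESeq2 (0.176) and without positive replicate 1 (0.200), positive replicate 2 (0.179) or negative replicate 2 (0.155).

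Atg14 stood at 9.69 and 13.0 CPM against 12.7 and 15.1 CPM, a log2 fold change of -0.30 (SE 0.15, adjusted p = 0.168), and its groups overlapped. The value was -0.10 without positive replicate 1, -0.52 without positive replicate 2, -0.42 without negative replicate 1 and -0.18 without negative replicate 2. The other genes of the complex leaned the other way without being called. Pik3r4 stood at 57.9 and 57.1 CPM in positive and 54.8 and 52.0 CPM in negative libraries (log2 fold change 0.11, SE 0.07, adjusted p = 0.271). Uvrag stood at 49.1 and 49.3 CPM against 47.8 and 48.7 CPM (log2 fold change 0.03, SE 0.07, adjusted p = 0.819). For both genes the positive libraries were the higher ones, by margins that the test did not separate from the spread. Becn1, Nrbf2, which encodes a subunit that binds ATG14, and Pik3c3 had log2 fold changes of 0.09, 0.14 and 0.04, so that 5 of the 7 genes of the complex had values above 0. Without negative replicate 2 Becn1 was called higher (adjusted p = 0.0496).

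Membrane supply gave the firmest difference. Atg9a encodes the scramblase of the small vesicles that seed autophagosomes (mm10 chr1:75180861-75192010). It stood at 60.6 and 61.8 CPM in positive and at 85.9 and 73.0 CPM in negative libraries. The 2 positive libraries were close together and both were below the negative ones, which differed more from each other. The log2 fold change was -0.38 (SE 0.07, adjusted p = 0.000885), a level 23.1% lower in positive cells, and Atg9a was called lower in 10 of 10 alternative analyses, with log2 fold changes from -0.49 to -0.25.

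Atg2a and Atg2b encode channels that carry lipid from the endoplasmic reticulum to the growing membrane. Atg2b stood at 116 and 114 CPM in positive and 120 and 125 CPM in negative libraries, which did not overlap (log2 fold change -0.09, SE 0.05, adjusted p = 0.204). Atg2a, with a positive mean of 57.3 CPM and a negative mean of 64.0 CPM, had a log2 fold change of -0.16 (adjusted p = 0.107). Vmp1, which encodes a scramblase of the endoplasmic reticulum, stood at 86.3 and 91.7 CPM against 85.9 and 102 CPM, with overlapping groups (log2 fold change -0.08, SE 0.07, adjusted p = 0.482). Its partner Tmem41b had a log2 fold change of 0.07, so that 4 of 5 genes of this role had values below 0.

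WIPI proteins read PI3P on the new membrane, and WIPI2 brings in the LC3 conjugation enzymes. All 4 genes of this family had log2 fold changes below 0 and 1 was called. Wipi1 (mm10 chr11:109573521-109611389) stood at 3.73 and 3.26 CPM in positive and 5.76 and 5.31 CPM in negative libraries, from 67 and 52 against 89 and 76 counts. These groups did not overlap, and the log2 fold change of -0.66 (SE 0.22, adjusted p = 0.0354) was the lowest of the 34. The call held in 5 of 10 alternative analyses. It was lost with library size alone (adjusted p = 0.0516), with DESeq2 (0.202) and without positive replicate 1 (0.0904), positive replicate 2 (0.210) or negative replicate 1 (0.111). Wipi2, Wdr45 and Wdr45b had log2 fold changes of -0.10, -0.19 and -0.04, and that of Wdr45b turned to 0.03 with library size alone.

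The conjugation enzymes act in 2 linked reactions. ATG7 activates both ATG12 and LC3, ATG10 passes ATG12 to ATG5, ATG3 passes LC3 to lipid, and the ATG12-ATG5-ATG16L1 complex sets the place. None of the 7 genes was called, with 4 log2 fold changes above 0 and 3 below. Atg5 stood at 45.2 and 41.2 CPM in positive and 39.5 and 38.0 CPM in negative libraries. The positive libraries were the higher ones (log2 fold change 0.16, SE 0.08, adjusted p = 0.159). Atg7 stood at 33.0 and 32.0 CPM against 31.0 and 32.4 CPM and overlapped (log2 fold change 0.04, SE 0.08, adjusted p = 0.789). Atg10, at 4.79 and 4.40 CPM against 4.21 and 3.78 CPM, had a log2 fold change of 0.20 (SE 0.22, adjusted p = 0.556). Its positive libraries lay above the negative ones, although the SE was as large as the difference. The 3 genes below 0 were Atg12, Atg16l1 and Atg16l2, with log2 fold changes of -0.20, -0.20 and -0.16 and adjusted p of 0.0680, 0.154 and 0.193. Atg3 had a log2 fold change of 0.13. Without positive replicate 2 Atg14 and Atg16l1 were called lower, and without negative replicate 1 these 2, Stx17 and Vmp1 were.

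ATG4 proteases prepare LC3 for conjugation and later remove it from lipid. Atg4c was the least counted member, at 1.89 and 2.57 CPM in positive and 1.29 and 1.68 CPM in negative libraries, from 20 to 41 counts. Its positive libraries were both higher and its log2 fold change of 0.58 was the highest of the 34, with an SE of 0.36 and an adjusted p of 0.260. Atg4b and Atg4d had log2 fold changes of -0.03 and -0.01, and both turned above 0 with library size alone (0.03 and 0.05). Atg4a had a log2 fold change of 0.17, but the row of that name in the deposited table lies at chr3:103643953-103646068, where RefSeq places the pseudogene Atg4a-ps. RefSeq places Atg4a itself at chrX:140953845-141164194. Because of the row's coordinates, this RNA value cannot be assigned to Atg4a or to the pseudogene. No ATAC library had a peak at the row on chromosome 3, and all 12 had one at the Atg4a start on chromosome X. Which transcripts the row counts was not tested. Of 12941 rows matched to RefSeq, 25 lay on another chromosome than RefSeq gives, and Atg4a was the one member among them.

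Stx17, which encodes the SNARE that closes on the lysosome, and Epg5, which encodes a tether for that fusion, were not called. Epg5 stood at 47.0 and 51.8 CPM in positive and 47.8 and 42.9 CPM in negative libraries, which overlapped (log2 fold change 0.12, SE 0.08, adjusted p = 0.290). Stx17 had a positive mean of 32.5 CPM and a negative mean of 35.0 CPM, also with overlap (log2 fold change -0.10).

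**Figure D2:**
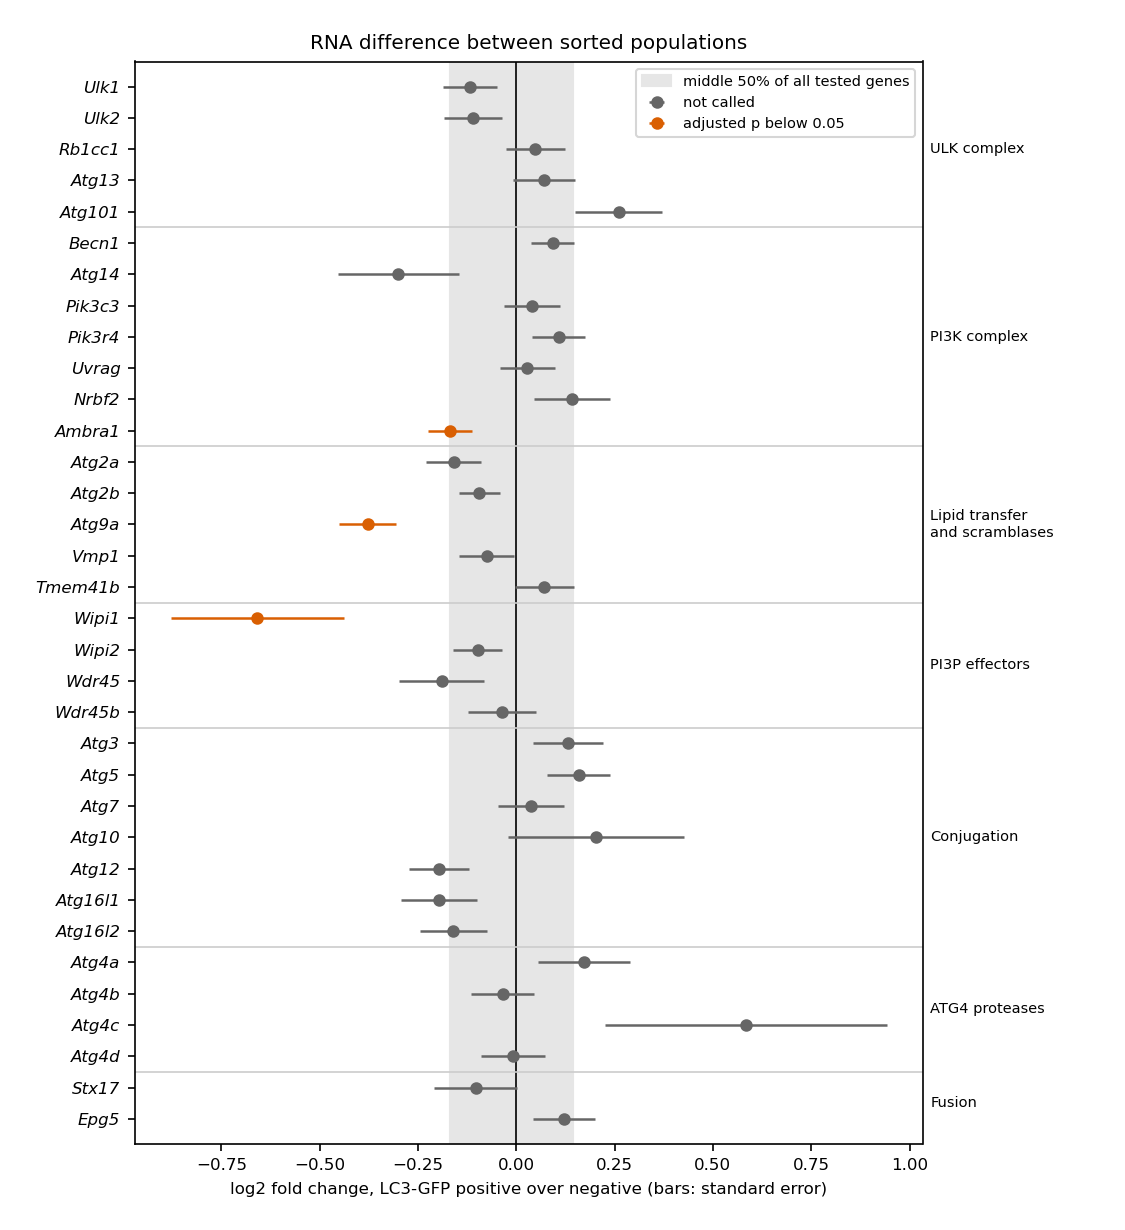
Log2 fold change in RNA, LC3-GFP positive over negative, of the 34 genes by role, with standard errors from the edgeR fit; orange marks an adjusted p below 0.05 and the grey band the middle 50% of all tested genes. The 3 called genes are all below 0 (Atg9a -0.38, Wipi1 -0.66, Ambra1 -0.17), and the wide bar of Atg4c (0.58) spans an SE of 0.36.

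The genes around this machinery were counted the same way, beside the 25.0% of all tested genes that were called, 11.3% higher and 13.6% lower. Of the 5 tested ATG8 genes, LC3 and its relatives, 1 was lower and none higher. It was Gabarap (mean 83.1 against 100.1 CPM, log2 fold change -0.27, adjusted p = 0.00253), while Map1lc3b, which encodes LC3B, had a log2 fold change of -0.09 without being called. Of 24 tested mTORC1 and TSC genes, 2 were higher and 3 lower. Fnip1, which encodes a folliculin partner, rose by 0.48 and Lamtor5, a Ragulator subunit, by 0.33 on the log2 scale. Sesn1 and Ddit4, both stress-induced inhibitors of mTORC1, fell by 0.28 and 0.22 on that scale.

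Of 6 tested AMPK genes, 1 was lower, Stk11, which encodes the upstream kinase LKB1 (log2 fold change -0.17). Among 9 PI3P and Beclin 1 regulators the 1 called gene was Sh3glb1, which encodes a curvature protein that binds UVRAG (log2 fold change -0.22). Of 13 fusion genes, Tecpr1, whose product tethers autophagosomes to lysosomes, was lower (log2 fold change -0.40, adjusted p = 1.69e-05) and Rab7, the late endosome GTPase, was higher (0.14, adjusted p = 0.0293). Of 11 transcription factors of autophagy genes 3 were lower and none higher, against the same background of 13.6% and 11.3%. Ddit3, which encodes the stress factor CHOP, stood at 9.86 and 11.5 CPM in positive and 22.3 and 21.0 CPM in negative libraries (log2 fold change -1.02, adjusted p = 8.79e-06). Foxo1 and Atf4 were lower by smaller amounts, with log2 fold changes of -0.20 and -0.16.

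Every member had open chromatin in each of the 12 libraries. In vitro the positive libraries held 154 and 129 peaks at these genes and the negative ones 138 and 120. The tumour libraries held 74, 83, 88 and 90 in positive and 87, 132, 79 and 81 in negative replicates 1 to 4. These were 0.210% to 0.270% of each library's peaks, of which there were 49634 to 63761 in vitro and 27406 to 55171 in the tumour libraries. Negative replicate 2 of the tumour libraries held the most peaks of these, 55171, beside 33704 to 41435 in the other 3 negative libraries. Positive replicate 1 held the fewest, 27406, beside 36539 to 37477 in the other 3 positive libraries. Read depth is unknown, and the number of peaks moves with it, so that regions found in 1 group alone are also given with equal numbers of peaks from each library. Numbers of peaks per gene, open starts, shares of regions in every library and recurrence in tumours were not recomputed that way.

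The starts of these genes were open in both experiments. A peak lay over the RefSeq start window in all 12 libraries for 31 of 34 genes (91.2%), beside 84.9% of the genes tested for RNA. Wdr45 had one in 10 libraries, and Pik3c3 and Atg7, whose window holds an E-box, had none. Placed by the starts in the RNA table, 33 of 34 genes had one in all 12 (97.1%, beside 84.2%), and the exception was the Atg4a row described above. At Atg9a the authors' fold enrichment over local background at the start ran from 5.14 to 8.08 over the 12 libraries, at Wipi1 from 5.72 to 9.44 and at Ambra1 from 5.31 to 11.2. The Atg3 and Atg5 windows with E-boxes shown above had values of 4.74 to 8.30 and 5.28 to 8.96. These values describe peaks within a library and were not compared between groups.

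**Figure D3:**
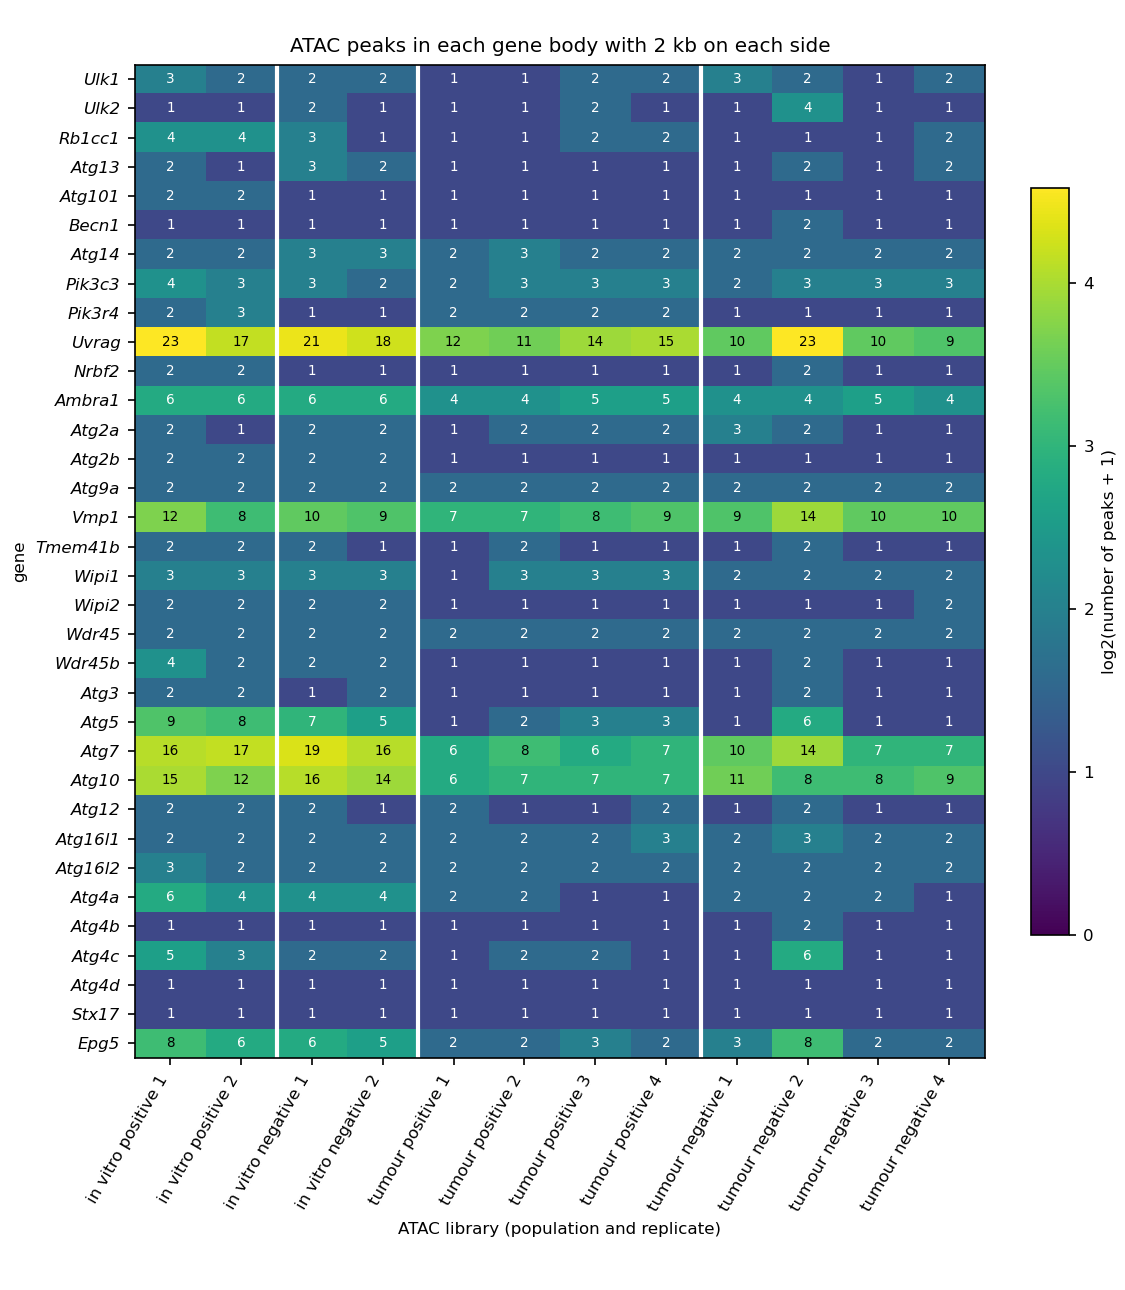
Number of ATAC-seq peaks in each gene body extended by 2 kb at each end (rows) in each of the 12 libraries (columns), with colour for log2(number + 1). Every gene had at least 1 peak in each library, Uvrag had 9 to 23, and Pik3r4 had 2 or 3 in each positive and 1 in each negative library. The peaks at Pik3r4 found in positive libraries alone lay in different regions in vitro and in tumours.

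Number of peaks separated the groups for some members. In vitro Rb1cc1, Atg101, Pik3r4, Nrbf2, Atg5 and Atg4c had more peaks in both positive libraries than in either negative one, 6 of 34 genes beside 11.6% of 15750 genes with a peak. Atg5 had 9 and 8 peaks in positive and 7 and 5 in negative libraries, and Atg4c had 5 and 3 against 2 and 2. Atg14 alone had more in both negative libraries (3 and 3 against 2 and 2), beside 3.90% of genes. In the tumour libraries Pik3r4 had 2 peaks in each positive and 1 in each negative library, where 0.370% of genes had more peaks in every positive library. The added tumour peak lay beside the gene, inside Col6a6, in a region without a peak in vitro. Atg10 had 6, 7, 7 and 7 peaks in positive and 11, 8, 8 and 9 in negative libraries, where 1.83% of genes had more in every negative library.

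Regions were then merged over libraries by overlap, and a region was called positive-only or negative-only when every library of 1 group and none of the other had a peak there. In vitro 13 of the 187 regions at these genes (6.95%) were positive-only, beside 8.03% of all regions, and 8 (4.28%) were negative-only, beside 3.32%. Both shares lay near the background. Regions in every library made up 50.8%, beside 53.8% of all regions and 56.7% of those at protein-coding genes extended alike. With 1 library fewer the rule asks less, and the shares over all regions rose too. Without positive replicate 1, positive replicate 2 or negative replicate 1 there were 21, 34 and 22 positive-only regions. These were 12.65%, 18.99% and 12.43%, beside 11.42%, 18.41% and 13.56% of all regions. Without positive replicate 1 or negative replicate 2 there were 17 and 18 negative-only ones (10.24% and 9.836%, beside 8.186% and 8.995%). With equal numbers of peaks from each library 7 of the 13 positive-only and 4 of the 8 negative-only regions kept their class. Counted anew under that setting, 11 of 156 regions were positive-only (7.05%, beside 6.99% of all regions). Negative-only were 10 (6.41%, beside 6.01%), so the 2 classes were then close in number.

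Atg5 held 4 of the 13 positive-only regions, all in its gene body on chromosome 10. They lay at chr10:44304884-44305411, chr10:44321640-44322384, chr10:44339559-44340510 and chr10:44353279-44353700, with midpoints 36.8, 53.7, 71.7 and 85.2 kb past the start. The authors' fold enrichment in positive replicates 1 and 2 was 3.54 and 4.11 in the first, 6.54 and 4.69 in the second, 4.25 and 3.37 in the third and 4.81 and 4.99 in the fourth. No tumour library had a peak in any of them, and 3 of the 4 kept their class with equal numbers of peaks.

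Uvrag held 2 positive-only regions, at chr7:99041720-99042329 (fold enrichment 5.19 and 4.20) and chr7:99122593-99123090 (2.27 and 2.29), and the first kept its class with equal numbers of peaks. Pik3r4 had 1 at chr9:105656120-105656671 (3.19 and 4.93) and Atg4c 1 at chr4:99211599-99212066 (4.18 and 4.70), and both kept it as well. At Atg101 the region chr15:101292903-101293675 (3.52 and 3.79) lay beyond the gene end, over the promoter of the neighbour Smim41, so it may be read as a region of either gene. The others lay in Epg5 and Atg7, beside Atg2b and at Vmp1.

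The Vmp1 region, chr11:86670958-86671474, covers the whole alternative promoter window printed above and has its midpoint 35 bases before that start. It had fold enrichments of 3.25 and 2.94, below the 4.35 and 5.55 at the most enriched Vmp1 start in the same libraries. It did not keep its class with equal numbers of peaks, and 1 tumour library, a negative one, had a peak there.

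Atg7 held 4 of the 8 negative-only regions, at chr6:114782660-114783308, chr6:114811909-114812469, chr6:114836907-114837425 and chr6:114839756-114840466. Their midpoints lay 111.9 to 169 kb past the start of the RefSeq promoter window, and fold enrichments ran from 2.37 to 4.90. That start, chr6:114671096, lies inside the RefSeq gene body, which begins at chr6:114643127, and no library had a peak over its window. A positive-only region of the same gene, chr6:114818557-114819051 (3.13 and 3.86), lay between the second and the third negative-only region. With equal numbers of peaks the negative-only region at 141.1 kb kept its class, and the other 3 and the positive-only region lost it. The remaining negative-only regions were 1 each in Atg13 (fold enrichment 3.43 and 3.90), Atg14 (3.74 and 3.88), Atg2b (3.63 and 2.91) and Vmp1 (2.39 and 2.12). That of Vmp1, chr11:86591063-86591894, lies 6.91 kb from the hairpin of Mir21a and overlaps the gene model Gm46289 too.

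**Figure D4:**
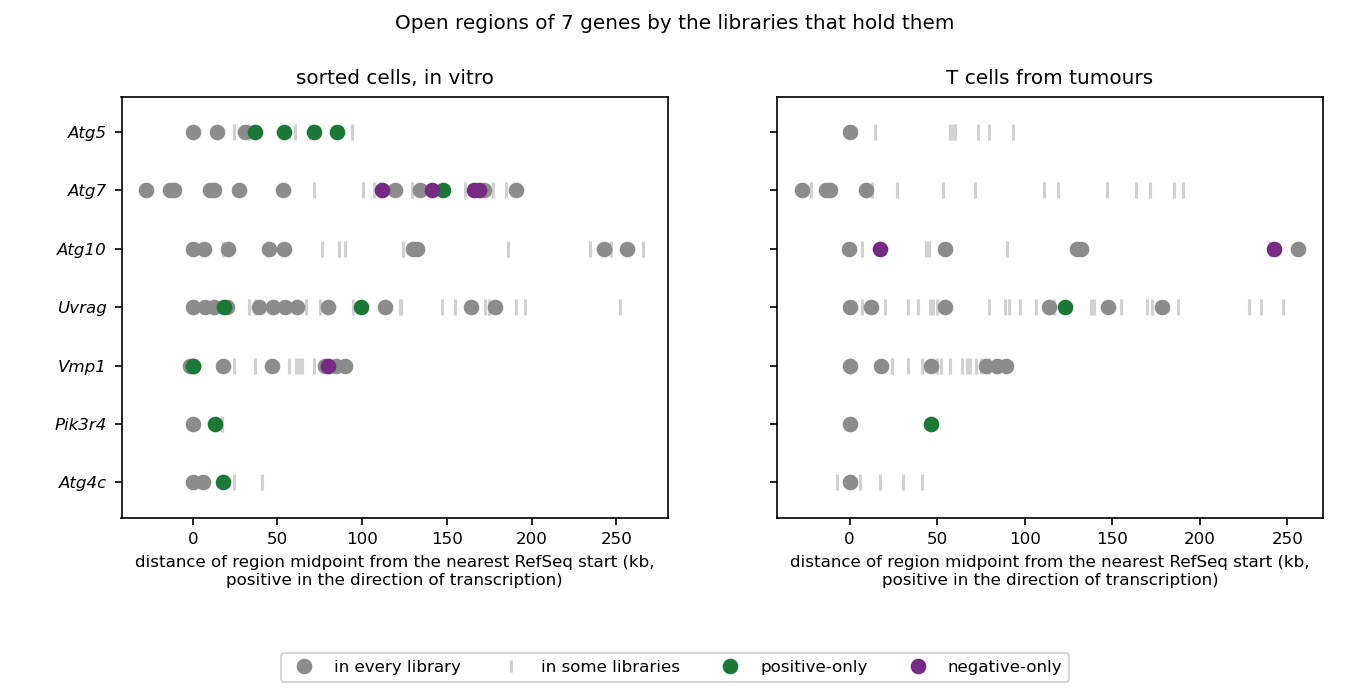
Position of merged open regions along 7 genes, as distance of the region's midpoint from the gene's nearest RefSeq start (kb), in vitro (left) and in T cells from tumours (right); grey circles are regions in every library, grey bars those in some, green circles positive-only and purple circles negative-only regions. In vitro Atg5 carries 4 green circles between 36.8 and 85.2 kb and Atg7 carries 4 purple ones between 111.9 and 169 kb, and in tumours the purple circles are on Atg10. Distances for Atg7 run from a start inside its gene body.

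RNA of the members with such regions was set beside that of all genes of the same class. The 6 members with a positive-only and no negative-only region in vitro (Atg101, Atg4c, Atg5, Epg5, Pik3r4 and Uvrag) all had RNA log2 fold changes above 0, with a median of 0.14, and none was called. Over all 1595 tested genes of that class 51.3% were above 0, with a median of 0.01. The Epg5 region lost its class with equal numbers of peaks, and the Atg101 region also lies over the Smim41 promoter. Of the 3 members with both kinds of region (Atg2b, Atg7 and Vmp1) 1 was above 0, beside 47.0% of 383 such genes. Of the 2 with a negative-only and no positive-only region (Atg13 and Atg14) 1 was above 0, beside 43.1% of 654. Of the 23 members with neither kind of region 8 were above 0, beside 51.2% of 9099 such genes, and all 3 called genes were among these 23. No test was made of this pattern, since the members were not chosen independently of earlier results.

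In the tumour libraries 2 of 163 regions (1.23%) were positive-only, beside 0.691% of all regions, and 2 (1.23%) were negative-only, beside 1.04%. Regions in all 8 libraries made up 37.4%, beside 29.0% of all regions and 34.3% of those at protein-coding genes. Both negative-only regions lie in Atg10. The first, chr13:90980814-90982003, is 242.6 kb past the start, with fold enrichments of 10.9, 3.14, 8.86 and 6.54 in negative replicates 1 to 4. The second, chr13:91205961-91207073, is 17.5 kb past the start, with 7.68, 7.35, 4.43 and 5.93. In vitro the first had peaks in both positive and both negative libraries and the second in 2 positive and 1 negative libraries, so neither was negative-only there.

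The positive-only regions of the tumour libraries were at Uvrag and beside Pik3r4. The Uvrag region, chr7:99017249-99018548, had fold enrichments of 7.15, 4.74, 6.93 and 6.51, and 1 positive library had a peak there in vitro. The region beside Pik3r4, chr9:105689215-105690112, had 5.46, 6.93, 4.70 and 5.46, lies inside Col6a6 and had no peak in vitro. None of the 4 regions kept its class when equal numbers of peaks were taken from each library. Without positive replicate 1 there were 4 positive-only regions (2.454%, beside 1.672% of all regions). The region beside Pik3r4 falls outside when gene bodies are not extended.

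No region called in vitro had the same class in the tumour libraries. Of the 13 positive-only regions in vitro, none had a peak in any tumour positive library, 4 had one in a tumour negative library and 9 had none in either, beside 12.6%, 39.5% and 57.9% of all positive-only regions. Each of those 4 had it in 1 negative library. Negative replicate 2 held the most peaks of the tumour libraries (55171), so the positive and negative counts are not on an even footing. Of the 8 negative-only regions, 1 had a peak in a tumour positive library, 2 in a negative one and 5 in none, beside 32.8%, 40.6% and 51.6%.

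Between the experiments, 239 regions at these genes were found over the 12 libraries. Of these, 59 (24.7%) were in all 12, beside 21.2% of all 94635 regions and 25.4% of those at protein-coding genes. In all 4 in vitro and no tumour library were 15 (6.28%), beside 4.76%, and in all 8 tumour and no in vitro library were 0, beside 0.173%. The 15 lay in the gene bodies of Ambra1, Atg4a, Epg5 and Uvrag with 2 each and of Atg5, Atg7, Atg10, Vmp1, Wdr45b, Wipi1 and Wipi2 with 1 each. The Atg4a pair lies on chromosome X at chrX:140969384-140970053 and chrX:140979112-140980166. Fold enrichments at the first were 4.18 and 4.40 in positive and 6.37 and 5.70 in negative libraries. Of the 8 tumour libraries, 7 hold fewer peaks than any in vitro library. With equal numbers from each library 3 of 131 regions were found in vitro only (2.29%, beside 2.41% of all regions) and 3 in tumours only (2.29%, beside 0.491%). Culture, host, time and sort differ together between the experiments and cannot be told apart.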

How the data were processed

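RNA was measured in 4 libraries and open chromatin in 12. For RNA the authors deposited unscaled estimated counts of each gene, and 22.5% to 23.8% of a library's values were not whole. STAR, Partek and DESeq2 are named for RNA, and cutadapt, BWA, MACS2 and Partek for ATAC-seq, both on mm10, per the submitters' processing notes. Versions, the handling of shared reads and strand, and any shift for the Tn5 cut are not given in the sources used here. ATAC-seq cuts accessible DNA with the Tn5 transposase. Per the file headers, each deposited peak was called in 1 library and carries a pileup signal, a fold enrichment over local background, and -log10 values of p and q.

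Counts were rounded and genes kept by filterByExpr. After TMM scaling of library sizes, edgeR 4.0.16 (limma 3.58.1, R 4.3.3) was fitted with group alone on all genes, with DESeq2 1.42.0 as an alternative. Peaks were merged at 1 bp overlap with Python 3.11.15 and pandas 2.3.3, with gene bodies from RefSeq GRCm38.p6. Presence of peaks was counted with no p. Peak values came from separate libraries and were used within each. Promoter sequences are RefSeq's. Alternatives were other scalings, filters and tools, no Rn45s, the replicate block, each library left out, -log10 q of at least 3, equal numbers of peaks, a 100 bp overlap and extensions of 0 or 10 kb. Scripts were tested on simulated data. Groups came from the labelled cell population. Full values are given for genes called in RNA or holding a region open in 1 population, and the others are given by role. From each related list up to 4 called genes with the largest change are named. The genes and lists were chosen with earlier results of these data known.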

Additional observations from a re-analysis of the deposited data

Results flagged for a closer look

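In each group of 4 tumour libraries, a value was marked when its gap to the nearest other value was above Dixon's 95% critical value for the group's range. Chance marks about 1 in 20 groups, and where 3 of 4 small whole numbers are equal any other number is marked.

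Positive replicate 1 held 27406 peaks, beside 36539 to 37477 in the other 3 positive libraries, and negative replicate 2 held 132 peaks at the 34 genes, beside 79 to 87. In negative replicate 2 the marked numbers were 23 peaks at Uvrag (others 9 or 10), 8 at Epg5 (2 or 3), 6 each at Atg5 and Atg4c (1), 4 at Ulk2 (1), 3 at Atg16l1 (2), and 2 each at Becn1, Nrbf2, Tmem41b, Wdr45b, Atg3, Atg12 and Atg4b (1). That library had more peaks than the others in all 13 of these genes. In the other negative libraries they were 2 peaks at Pik3c3 in replicate 1 (others 3), 5 at Ambra1 in replicate 3 (4), 2 each at Rb1cc1 and Wipi2 in replicate 4 (1) and 1 at Atg4a in replicate 4 (2).

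Positive replicate 1 had 1 peak each at Wipi1 (others 3) and Atg2a (2), 2 at Pik3c3 (3) and 6 at Atg10 (7). Positive replicate 2 had 3 peaks at Atg14 (others 2) and 2 at Tmem41b (1). Positive replicate 3 had 2 at Ulk2 (1) and 3 at Epg5 (2), and positive replicate 4 had 3 at Atg16l1 (2).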

How the results depend on the processing

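Over 10 alternatives, members called in RNA went from 0 higher and 3 lower to 3 and 1 with library size alone and 0 and 1 with DESeq2, which called 1688 genes in place of 3000. Leaving out 1 library gave 1722 to 3451 called genes, 0 to 1 members higher and 1 to 6 lower. With the replicate block 3568 genes and the same 3 members were called. Over all genes the replicate numbers showed little pairing (correlation of deviations 0.05), but 2 libraries in a group cannot settle whether the samples are paired. The block changed no call of a member.

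Uncalled log2 fold changes near 0 changed sign: with library size alone Wdr45b (0.0263), Atg4b (0.0281) and Atg4d (0.0546), and without 1 library Rb1cc1 (-0.0106 to 0.112), Atg13 (-0.0353 to 0.178), Vmp1 (-0.195 to 0.0504), Wdr45b (-0.0951 to 0.0206), Atg4b (-0.117 to 0.0563), Atg4d (-0.0259 to 0.0145) and Stx17 (-0.295 to 0.110). Of all member values under these settings 306 kept direction and side of the threshold, 11 became called, 10 lost the call and 13 changed sign.

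In vitro, leaving out 1 library gave 15 to 34 positive-only regions (8.197% to 18.99%, beside 9.736% to 18.41% of all regions). Negative-only regions numbered 10 to 18 (5.587% to 10.24%, beside 4.352% to 8.995%). Equal numbers of peaks gave 11 positive-only and 10 negative-only regions in vitro. In tumours positive-only regions numbered 0 with equal numbers of peaks (beside 1.704% of all regions), 1 without extension and 2 to 4 without 1 library. Without 1 library the positive-only shares were 1.235% to 2.454%, beside 0.7551% to 1.672%. Negative-only regions in tumours numbered 0 with equal numbers of peaks (beside 0.6816%). Regions in vitro only numbered 3 with equal numbers of peaks, and regions in tumours only 1 at -log10 q of at least 3 and 3 with equal numbers of peaks. The rule asks fewer libraries when 1 is left out; the cause was not tested for the other changes. Read depth of the ATAC libraries is unknown, and 2 RNA libraries in a group limit what the test can call.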
